A study of Mus musculus with 10 samples.

Results

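The mouse bladder libraries were examined for 10 transcription factors of the urothelium, Pparg, Gata3, Foxa1, Grhl2, Grhl3, Elf3, Klf5, Trp63, Ovol1 and Ehf, out of 55536 genes counted in each library. They were taken by gene symbol as known factors of this epithelium, with earlier results of these data known. RNA was sequenced from the bladders of C57BL/6 mice with 4 WT, 3 OMD-/- and 3 PRELP-/- libraries, so as to ask what loss of either secreted proteoglycan, osteomodulin or PRELP, does to bladder gene expression. Both knockouts were constitutive, so every cell of the animal carried the deletion. Each knockout allele lacks exons 2 and 3 of its gene and carries a β-galactosidase reporter driven by that gene's own promoter, and WT mice have neither change. The labels describe homogenised bladder tissue, whereas the study speaks of isolated epithelia, and they give neither the age of the mice nor whether animals were pooled. The study's text also gives other sample numbers than the labels, which were followed here. Each library was taken as a separate sample, so p-values measure the spread between libraries, which may be technical, and they are too small if libraries of a group share source material.

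The urothelium is a layered epithelium in which basal cells, intermediate cells and the large superficial umbrella cells differ in keratins and in uroplakins, the membrane proteins of the umbrella cell surface. p63, encoded by Trp63, is the master regulator of the basal state, while PPARγ, GATA3, FOXA1, KLF5, GRHL3 and ELF3 are known for driving or maintaining urothelial differentiation. GRHL2, OVOL1 and EHF act more widely in epithelia, where they keep epithelial genes on and restrain mesenchymal ones. In RNA from a whole sample, a lower share of the cells that use a gene and less of its RNA in each cell cannot be told apart.

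Promoters of 3 genes are shown because they belong to the one factor that was higher in both knockouts (Elf3), to the factor whose promoter held a forkhead motif, the motif of its own protein family (Foxa1), and to a target of GRHL factors that rose in OMD-/- (Prom2). RefSeq promoter windows on build GRCm38.p6, 250 bases before to 50 bases after the gene start, were matched for 5 of the 10 factors in 7 windows (Pparg 3, and Gata3, Foxa1, Grhl3 and Elf3 1 each). Those of Grhl2, Klf5, Trp63, Ovol1 and Ehf are not shown. All 3 genes lie on the minus strand, each sequence is written 5′ to 3′ along the gene, and capitals mark the motif, AACCGG (a GRHL half-site) in Elf3 and Prom2 and TGTTTAC (forkhead) in Foxa1, each searched on both strands.
Elf3, chr1:135258423-135258722: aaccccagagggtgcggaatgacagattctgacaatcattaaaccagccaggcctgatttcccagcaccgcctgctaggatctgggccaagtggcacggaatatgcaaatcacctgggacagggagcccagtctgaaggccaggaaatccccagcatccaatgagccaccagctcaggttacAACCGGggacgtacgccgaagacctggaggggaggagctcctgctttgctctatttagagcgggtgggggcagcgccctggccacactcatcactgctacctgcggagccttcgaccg
Foxa1, chr12:57546062-57546361: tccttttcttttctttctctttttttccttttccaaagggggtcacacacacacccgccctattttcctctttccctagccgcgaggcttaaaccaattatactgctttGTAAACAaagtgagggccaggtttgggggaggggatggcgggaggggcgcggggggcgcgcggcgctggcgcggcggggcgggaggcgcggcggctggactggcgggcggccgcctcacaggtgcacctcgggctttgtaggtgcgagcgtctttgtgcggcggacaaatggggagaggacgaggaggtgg
Prom2, chr2:127541368-127541667: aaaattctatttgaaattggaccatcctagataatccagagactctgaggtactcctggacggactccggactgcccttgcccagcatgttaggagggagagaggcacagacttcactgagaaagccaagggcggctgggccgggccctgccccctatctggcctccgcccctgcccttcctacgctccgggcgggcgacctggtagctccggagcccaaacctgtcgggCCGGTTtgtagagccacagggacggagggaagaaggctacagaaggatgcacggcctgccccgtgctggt
Distances are counted from the RefSeq start of each window. The GRHL half-site stood 68 bases before the Elf3 start, and 20 bases before the Prom2 start in the reverse orientation. It was found in 1 of the 7 windows of the factors and in 6.83% of all 32817 RefSeq promoter windows. The forkhead motif stood 141 bases before the Foxa1 start in the reverse orientation, in 1 of the 7 windows and 3.65% of all. The GENCODE spans of Elf3 and Foxa1 given below begin further upstream than these RefSeq starts. Both marked motifs therefore lie inside those spans. The GC box CCCCGCCC was in 1 Pparg window and in 17.6% of all windows. Searched in the same way, the motif of GATA factors, read as AGATAA, was in 0 factor windows and 11.2% of all. The ETS motif read as CCGGAAG was in 0 and 8.86%, and the OVOL motif read as CCGTTA in 0 and 2.75%. These are matches of letters in a short window and say nothing of whether a factor binds there.

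Total counts ran from 20391437 to 46269079 per library, WT replicate 1 being the deepest and all others at 25905707 or less. Prelp was 267 ± 43.4 CPM (counts per 1000000 counts of the library, normalised, SD, n = 4) in WT and 2.72 ± 1.29 (n = 3) in PRELP-/-, whereas Omd was listed at 0 in all 3 OMD-/- libraries but at no more than 0.531 CPM in WT, too low to check the labels by. In OMD-/-, Prelp was 807 ± 30.6 CPM (n = 3), above every WT library (log2 fold change 1.59 ± 0.12, SE, edgeR adjusted p = 1.28e-05). The summed umbrella cell markers stood at 8555 CPM or more in every library, so urothelium was present in all, whereas smooth muscle markers summed to only 239 to 1309 CPM. Several libraries stood apart in ways that touch the results. Y-linked genes summed to 194 and 166 CPM in WT replicates 1 and 2 and to 1.46 and 1.06 CPM in WT replicates 3 and 4, to 18.6, 1.14 and 0.913 CPM in OMD-/- and to 120, 19.1 and 18.9 CPM in PRELP-/-. Xist, the RNA of the inactive X chromosome, was 1019 and 1225 CPM in WT replicates 3 and 4 but only 88.7 and 76.6 CPM in OMD-/- replicates 2 and 3. OMD-/- replicate 1 and PRELP-/- replicates 2 and 3 carried it at 38.2, 48.5 and 55.4 CPM beside their Y-linked reads. Within groups, PRELP-/- replicates 2 and 3, OMD-/- replicates 2 and 3 and WT replicates 3 and 4 were closer to each other than to their other replicates, and whether these pairs share source material was not tested, though they differed by more than counting noise (median chi-square per gene 1.06, 1.13 and 1.57, against 0.455 for noise alone). PRELP-/- replicate 1 differed most, with a median chi-square of 29.4 and 30.2 against the other PRELP-/- libraries.

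All 10 factors were expressed in WT bladder. Levels of different genes were compared per kilobase of exon. The length used was that of all annotated exons of a gene merged, not of the transcripts expressed, so the order depends on it. Gata3 was highest at 105 ± 9.77 CPM per kb (SD, n = 4), followed by Foxa1 at 90.7 ± 6.12, Grhl3 at 83.7 ± 7.39, Ehf at 66.5 ± 3.09 and Pparg at 63.1 ± 5.46. Klf5 stood at 58.7 ± 3.55, Elf3 at 54.7 ± 6.26 and Trp63 at 39.7 ± 4.05, with Grhl2 at 10.2 ± 2.04 and Ovol1 at 4.68 ± 0.224 far below. The WT ranges of Gata3 and Foxa1 overlapped, as did those of Foxa1 and Grhl3, and those of neighbours in the order from Ehf through Elf3, so that their places in the order are not separated by these 4 libraries. Grhl3 and Ehf, Elf3 and Trp63, Trp63 and Grhl2, and Grhl2 and Ovol1 did not overlap. Grhl2 had the largest SD relative to its mean among WT libraries. It was 101 and 105 CPM in WT replicates 1 and 2, which are high in Y-linked reads, and 74.0 and 70.9 CPM in WT replicates 3 and 4, which are low in them.

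**Figure D1:**
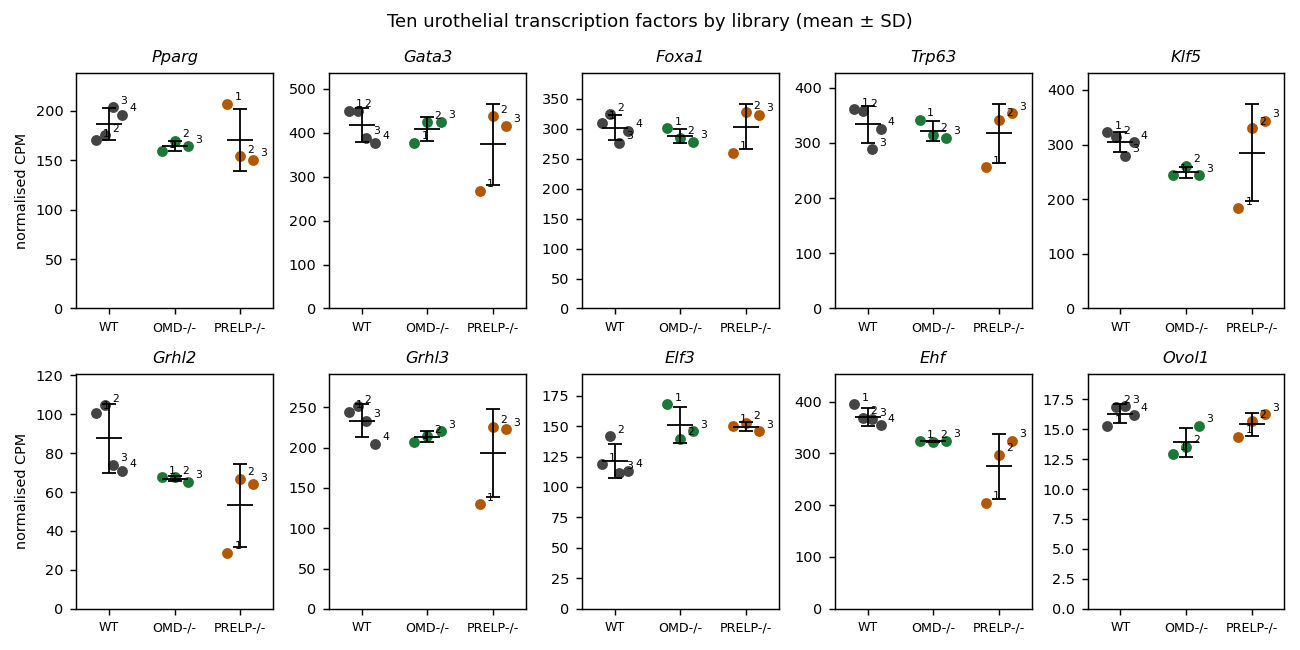
Normalised CPM (vertical axes, each from 0) of the 10 factors in each library, with the replicate number beside each point and the mean ± SD of each group (WT n = 4, OMD-/- n = 3, PRELP-/- n = 3) as bars. PRELP-/- replicate 1 is the lowest point of all libraries for 7 factors, and the WT points of Grhl2 fall into pairs.

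In OMD-/- bladders, Klf5 and Grhl2 fell, to 250 from 305 CPM and to 66.8 from 87.6 CPM, and Elf3 rose to 151 from 121 CPM in the mean. These were 3 of the 10 factors, and 29.4% of the 16647 genes tested in this comparison passed the same test, so the share of the factors that changed was that of genes at large. By direction, 1 factor rose where 14.3% of genes did and 2 fell where 15.1% did. The other 7, including Gata3, Foxa1 and Trp63, did not pass. On the log2 scale 9 of the 10 were lower, with a median difference of -0.16 against -0.0002 over all tested genes. With all 3 groups in one fit, or with the close pairs of libraries summed into 1 each, 0 of the 10 factors passed. Here and below, a gene passed where its adjusted p (Benjamini-Hochberg over the tested genes, from the quasi-likelihood test of edgeR) was under 0.05.

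Klf5 encodes a zinc finger factor needed for urothelial maturation (chr14:99298691-99315036, plus strand, GRCm38). Its level was 323, 314, 280 and 304 CPM in WT replicates 1 to 4 and 244, 261 and 244 CPM in OMD-/- replicates 1 to 3. All OMD-/- libraries lay below all WT libraries. The log2 fold change was -0.29 ± 0.08 (SE, n = 4 and 3, edgeR adjusted p = 0.0217). The adjusted p was 0.0565 without WT replicate 1 and 0.0507, 0.0509 and 0.0996 without OMD-/- replicates 1, 2 and 3, with a fold change of -0.33 to -0.26 over all 7 libraries left out in turn. Between the libraries low in Y-linked reads, WT replicates 3 and 4 and OMD-/- replicates 2 and 3, which still differ in Xist as given above, the difference in log2 CPM was -0.21.

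Grhl2 encodes a Grainyhead-like factor that activates E-cadherin and other junction genes (chr15:37233036-37363569, plus strand). Against the WT values given above, which fell into pairs, OMD-/- replicates 1 to 3 read 67.5, 67.5 and 65.3 CPM. Every OMD-/- library was below every WT library, but only narrowly below WT replicates 3 and 4. The log2 fold change was -0.39 ± 0.13 (SE, edgeR adjusted p = 0.0493). It shrank to -0.15 with the Y-linked level as a covariate (adjusted p = 0.158), and to -0.13 between the libraries low in Y-linked reads. Without WT replicates 1 or 2 the fold change was -0.32 and -0.30 (adjusted p = 0.108 and 0.103), and without OMD-/- replicates 1, 2 or 3 the adjusted p was 0.12, 0.128 and 0.149. Whether the Y-linked level had a part in the WT pairs was not tested apart from this covariate. An antisense gene, Gm16136, shares 169 bases of Grhl2 exons and was counted at a mean of 106 CPM, so reads of the pair could be mixed if the counting ignored strand, which is not given in the sources used here. The genes that share exonic bases with Gata3, Elf3 and Ovol1 were counted at means of 0.311 to 1.91 CPM.

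Elf3 encodes an ETS factor of luminal epithelium (chr1:135253575-135258568, minus strand). It was 119, 142, 112 and 113 CPM in WT replicates 1 to 4 and 168, 140 and 146 CPM in OMD-/- replicates 1 to 3. The groups overlapped, since WT replicate 2 exceeded OMD-/- replicate 2. The log2 fold change was 0.32 ± 0.10 (SE, edgeR adjusted p = 0.0341). It stood at 0.40 with the Y-linked level as a covariate (adjusted p = 0.00486) and at 0.34 between the libraries low in Y-linked reads. Without WT replicate 2 the adjusted p was 0.0111, but the call was lost without WT replicate 1, 3 or 4 (adjusted p = 0.0771, 0.109 and 0.0827) and without OMD-/- replicate 1, 2 or 3 (0.115, 0.0513 and 0.0827).

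Of the factors that did not pass, Ehf and Pparg were also lower in every OMD-/- library than in every WT library. Ehf, an ETS factor of epithelia (chr2:103263433-103303278, minus strand), was 354 to 395 CPM in WT and 322 to 324 CPM in OMD-/- (log2 fold change -0.20 ± 0.08, adjusted p = 0.0711), and passed with DESeq2 and with limma-voom (adjusted p = 0.0231 and 0.0267). Pparg, which encodes the lipid-sensing nuclear receptor PPARγ (chr6:115360951-115490399, plus strand), was 170 to 204 CPM in WT and 159 to 169 CPM in OMD-/- (-0.18 ± 0.09, adjusted p = 0.145). It passed with the Y-linked level as a covariate (-0.29, adjusted p = 0.00619) and with limma-voom (-0.21, adjusted p = 0.0307). Against 4899 genes at large in the main fit, these alternatives called 5414 (DESeq2), 6782 (Y-linked covariate) and 7228 (limma-voom). Klf5, Grhl2, Ehf and Pparg made 4 of 10 factors below WT without overlap, where 19.6% of all tested genes were. No factor was above WT without overlap, where 19.3% were. Ovol1, a zinc finger repressor of mesenchymal genes (chr19:5549136-5560646, minus strand), was at -0.23 ± 0.11 (adjusted p = 0.152) and Grhl3, a Grainyhead-like factor of barrier formation (chr4:135541888-135573630, minus strand), at -0.13 ± 0.09 (0.303). The differences nearest to 0 were those of Foxa1, a forkhead factor that opens chromatin (chr12:57540628-57546916, minus strand), at -0.07 ± 0.08 (0.555), Trp63 (chr16:25683763-25892102, plus strand) at -0.05 ± 0.09 (0.709) and the zinc finger factor Gata3 (chr2:9857078-9890034, minus strand) at -0.03 ± 0.10 (0.854). The 95% interval of the Gata3 log2 fold change ran from -0.27 to 0.22 and that of Trp63 from -0.29 to 0.19.

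In PRELP-/- bladders none of the 10 factors passed the test, where 7.29% of 16581 tested genes did (1.4% higher and 5.89% lower). At an unadjusted p under 0.05 there were 2, Grhl2 and Ehf, and DESeq2 also called 0. Limma-voom with sample quality weights called 3 (Pparg and Ehf lower, Elf3 higher), while it called more genes at large too. As in OMD-/-, 9 of the 10 fitted differences were below 0 and Elf3 was above 0, with a median of -0.13 against 0.02 over all tested genes. Both comparisons share the same WT libraries, so this likeness is not independent.

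**Figure D2:**
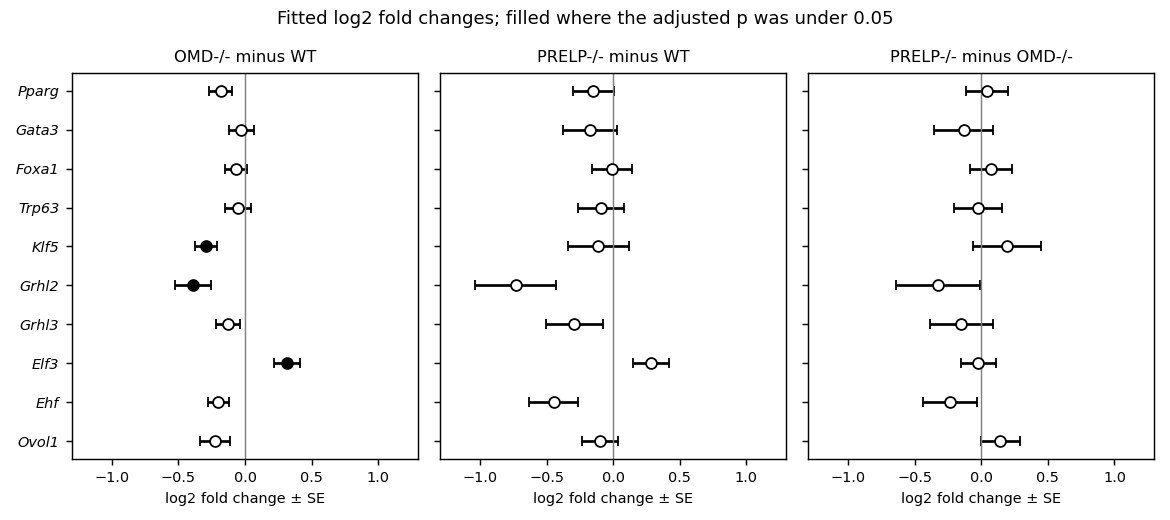
Fitted log2 fold changes (horizontal axes, ± SE) of the 10 factors in OMD-/- against WT, PRELP-/- against WT and PRELP-/- against OMD-/-. Filled points passed an adjusted p of 0.05, which were Klf5, Grhl2 and Elf3 in OMD-/- and none in the other comparisons.

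Grhl2 was 28.8, 66.9 and 64.0 CPM in PRELP-/- replicates 1 to 3, every value below the WT range of 70.9 to 105 CPM. Its log2 fold change was -0.73 ± 0.30 (adjusted p = 0.169), and -0.41 when PRELP-/- replicate 1 was left out. Ehf was 204, 297 and 324 CPM against 354 to 395 CPM in WT (-0.45 ± 0.19, adjusted p = 0.169), again with no overlap, and was at -0.25 without replicate 1. These 2 factors were the ones below WT in every PRELP-/- library, where 16.4% of tested genes were. Elf3 was the 1 factor above WT in every PRELP-/- library, at 150, 153 and 146 CPM against 112 to 142 CPM (0.28 ± 0.13, adjusted p = 0.218), where 13.6% of tested genes were. Its 3 values were close together and the result did not turn on replicate 1 (0.24 to 0.36 with each of the 7 libraries left out in turn).

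Klf5, which fell in OMD-/-, was 183, 330 and 344 CPM in PRELP-/- replicates 1 to 3, with replicate 1 below and replicates 2 and 3 above every WT library. The fitted log2 fold change of -0.11 ± 0.23 (adjusted p = 0.784) was turned to 0.15 by leaving out replicate 1. Pparg went the opposite way within the group, at 207 CPM in replicate 1, the highest of all 10 libraries, and 154 and 151 CPM in replicates 2 and 3, the lowest. Gata3 (268, 438 and 416 CPM) and Trp63 (256, 342 and 354 CPM) were lowest in replicate 1 and within the WT range in replicates 2 and 3. Without replicate 1 their fold changes turned from -0.17 to 0.04 and from -0.09 to 0.07. Foxa1 likewise turned from -0.01 to 0.12, and its sign also flipped with DESeq2 (0.0071), so no direction can be given for it. Grhl3 stood at -0.29 ± 0.22 and Ovol1 at -0.10 ± 0.13 (adjusted p = 0.414 and 0.674), and without replicate 1 at -0.046 and -0.020. Without replicate 1 the median over the 10 factors was 0.01.

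PRELP-/- replicate 1 had the lowest level of all 10 libraries for 7 of the factors, namely Gata3, Foxa1, Grhl2, Grhl3, Klf5, Trp63 and Ehf. This library also differed from the rest by exon length over all tested genes. Genes of at most 1000 exonic bases had a median log2 difference of 0.82 from the WT mean, and genes over 8000 bases one of -0.61, whereas the medians of the other 9 libraries stayed between -0.10 and 0.12 in every length class. Of the 10 factors, 8 were below the WT mean in this library and 8 were below the median of their own length class. These were not the same 8, since Trp63 was below the WT mean but above its class, and Pparg the reverse. Grhl2, with 8613 exonic bases, was -1.58 from the WT mean, which was -0.97 from its class. Grhl3, with 2789 bases in a class whose median was 0.30, was -0.84 from the WT mean and -1.14 from its class. Elf3 and Pparg, among the 3 shortest of the factors, were above the WT mean by 0.32 and 0.16. With an offset for exon length in the fit, still 0 factors passed in PRELP-/-, with a median of -0.14, and Grhl2 and Ehf stood at -0.63 and -0.39 (adjusted p = 0.0643 and 0.0895). In OMD-/- the same offset left Klf5, Grhl2 and Elf3 past the threshold and added Ehf (-0.21, adjusted p = 0.0425).

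**Figure D3:**
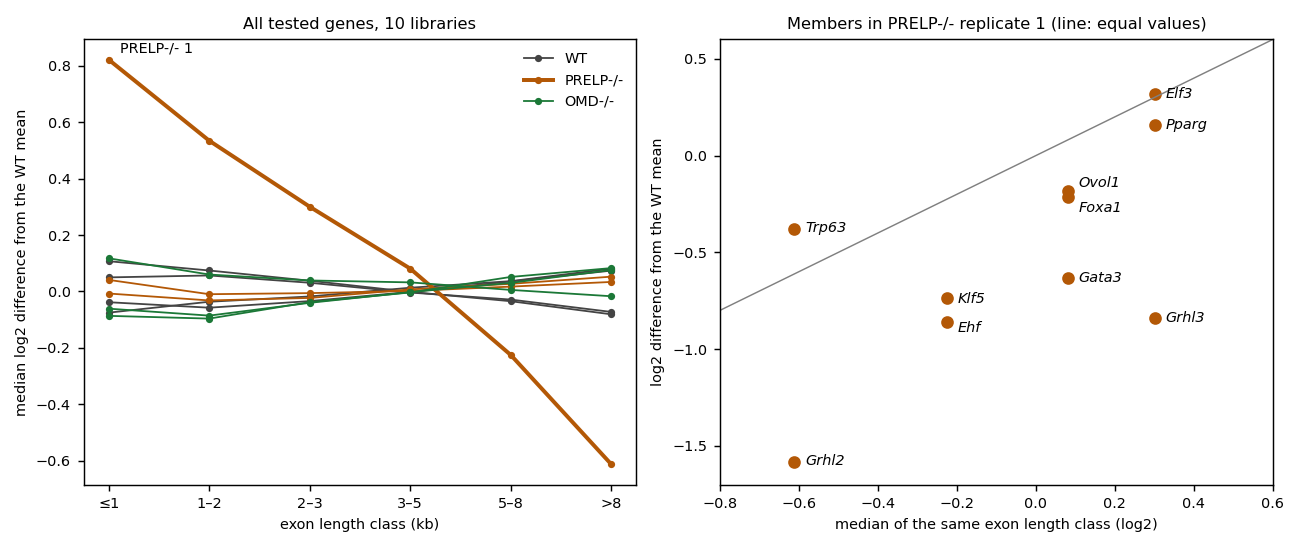
Left, median log2 difference from the WT mean (vertical axis) of all tested genes by class of exon length in kb (horizontal axis), 1 line per library, where PRELP-/- replicate 1 runs from 0.82 in the shortest class to -0.61 in the longest. Right, the log2 difference of each factor in PRELP-/- replicate 1 (vertical axis) against the median of its length class (horizontal axis), where 8 of the 10 factors lie below the line of equal values.

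Between the knockouts, 0 of the 10 factors passed the edgeR test, and 0 did at an unadjusted p under 0.05, while over all genes only Prelp passed (0.00633% of 15805 tested). DESeq2 also called 0 of the factors, and limma-voom with sample quality weights called 1, Klf5, which was higher in PRELP-/- (0.42, adjusted p = 0.00646). Klf5 was also called with the Y-linked level as a covariate (0.56, adjusted p = 0.00205). Both of these fits called more genes at large too, as counted in the closing section. The 1 gene over all genes became 43 with replicate number as a block, with 0 factors called in that fit as well. The intervals were wide. The 95% interval of the log2 difference of PRELP-/- minus OMD-/- ran from -0.52 to 0.91 for Klf5, from -1.20 to 0.55 for Grhl2, from -0.80 to 0.33 for Ehf and from -0.39 to 0.34 for Elf3. The groups overlapped for all 10 factors, where 8.71% of tested genes were lower and 6.38% higher in PRELP-/- without overlap. Apart from Klf5 in those 2 fits, no factor was called between the knockouts in any alternative run, which does not show that they are alike.

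Targets and layer markers were then read beside the factors, from lists drawn up from general knowledge. Some genes are shared between lists, such as Cdh1, Epcam and Spint1 (GRHL targets and epithelial) and Lamb3 (p63 targets and basal). Likeness between lists is thus not independent. The counts of each list stand against the genes at large, of which 14.3% rose and 15.1% fell in OMD-/-, and 1.4% rose and 5.89% fell in PRELP-/-. In OMD-/-, 2 of 9 GRHL target genes rose and 0 fell, and all 9 fitted differences were above 0. Among these, Spint1 (0.001) and Epcam (0.016) were near 0, and Tgm1 had a WT mean of only 0.605 CPM. Prom2, a membrane protein of cell protrusions whose promoter is shown above, was 766 to 849 CPM in WT and 1008 to 1181 CPM in OMD-/- (0.42 ± 0.09, adjusted p = 0.005). Cdh1, which encodes E-cadherin, was 578 to 714 CPM in WT and 813 to 922 CPM in OMD-/- (0.40 ± 0.10, adjusted p = 0.00968). Neither overlapped between the groups. The median of the list was 0.16 against -0.0002 over all tested genes. In PRELP-/- 0 of the 9 passed and 8 were above 0.

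Of the p63 targets, 2 rose and 1 fell of 12 tested in OMD-/-, where 14.3% and 15.1% of all tested genes did. The one that fell was Jag2, a Notch ligand, which had the smallest adjusted p of these lists. It was 209 to 236 CPM in WT, 125 to 131 CPM in OMD-/- and 104 to 147 CPM in PRELP-/-, so that both knockouts lay clear of WT. Its log2 fold change was -0.80 ± 0.08 in OMD-/- (adjusted p = 8.26e-05) and -0.79 ± 0.17 in PRELP-/- (adjusted p = 0.0256), where it was the only one of 13 tested to pass. The laminin chain Lamb3 rose in OMD-/- by 0.36 ± 0.10 (adjusted p = 0.0179). Of the PPARγ targets 1 of 10 rose in OMD-/-, and 0 passed in PRELP-/-.

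Of 7 umbrella cell markers, all had fitted differences above 0 in OMD-/- and 6 in PRELP-/-. In OMD-/- 2 rose, Upk2 by 0.52 ± 0.11 (adjusted p = 0.00654) and Upk1a by 0.45 ± 0.12 (adjusted p = 0.0171), both uroplakins, with a list median of 0.30. In PRELP-/- Upk2 was 2060, 1588 and 1533 CPM in replicates 1 to 3 against 973 to 1184 CPM in WT and rose by 0.68 ± 0.17 (adjusted p = 0.0477), with a list median of 0.61. PRELP-/- replicate 1 was again the extreme, with summed umbrella markers of 20786 CPM against 12704 and 12261 CPM in replicates 2 and 3. OMD-/- replicate 1 also stood above its group, at 14492 CPM against 10762 and 10957 CPM in replicates 2 and 3. The WT sums were 8555 to 10402 CPM. Of 7 basal cell genes tested in OMD-/-, 3 rose, namely Krt15, a basal keratin, Itga6, an integrin of hemidesmosomes, and Lamb3. The cytoskeletal linker Dst fell by 0.76 on the log2 scale (SE 0.12, adjusted p = 0.0014). In PRELP-/- 0 of 8 passed. Of 11 general epithelial markers 2 rose in OMD-/-, Cdh1 and Krt18, where 14.3% of all tested genes rose, and 0 passed in PRELP-/-.

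**Figure D4:**
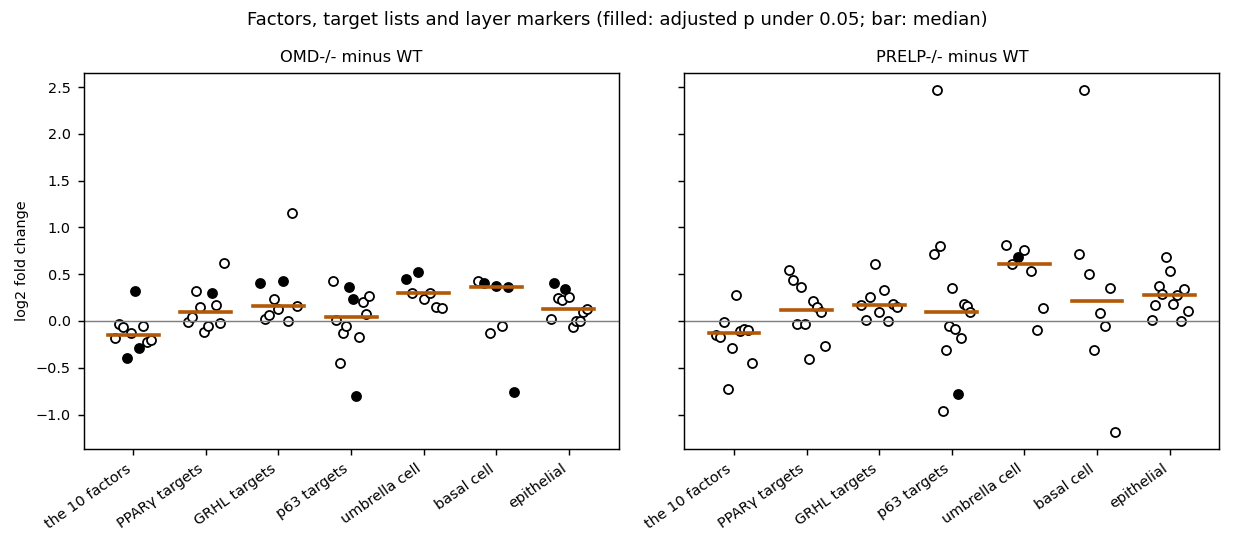
Log2 fold changes (vertical axis) of the 10 factors and of each tested gene of the target and layer lists (horizontal axis), in OMD-/- against WT on the left and PRELP-/- against WT on the right. Filled points passed an adjusted p of 0.05, and the bars, the list medians, lie below 0 for the factors and above 0 for the 6 other lists. Some genes are shared between lists.

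Since 10 of the 11 epithelial markers had fitted differences above 0 in each knockout, the factors were also scaled to them. Their geometric mean was 449 to 473 CPM in WT and 532 to 573 CPM in PRELP-/-. It was 574, 472 and 481 CPM in OMD-/- replicates 1 to 3. In OMD-/- the rise thus lay mostly in replicate 1, with replicate 2 within the WT range and replicate 3 just above it. Relative to these markers the median of the factors was -0.30 in OMD-/-, where Klf5 (-0.43), Grhl2 (-0.53) and Ehf (-0.34) passed (adjusted p = 0.0126, 0.0195 and 0.0233) and Elf3 no longer did (0.17, adjusted p = 0.208). The scaling moved genes at large downward too. It called 1031 genes higher and 3336 lower in OMD-/-, against 2377 higher and 2522 lower in the main fit. In PRELP-/- the median was -0.38 and Ehf passed (-0.69, adjusted p = 0.0486), while more genes at large were called too, as counted in the closing section. The markers did not move together in PRELP-/- replicate 1, the library with the exon length trend. There Krt18 was 3474 CPM against 1516 to 1656 CPM in WT, and Cdh1 413 CPM against 578 to 714 CPM. The part of the length trend in the scaled values was not tested. Which scale reflects the factors per urothelial cell was not tested.

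Relatives of the factors were counted in the same way. In OMD-/- 2 of 22 tested relatives rose and 4 fell, a share near the 29.4% of genes at large. Grhl1, another Grainyhead-like factor, was 82.3 to 90.3 CPM in WT and 68.1 to 72.1 CPM in OMD-/- (-0.31 ± 0.07, adjusted p = 0.00881). Gata2 was 198 to 211 CPM in WT and 150 to 173 CPM in OMD-/- (-0.36 ± 0.08, adjusted p = 0.0062). Klf6 and Gata6 rose by 0.49 ± 0.12 and 0.32 ± 0.08 (adjusted p = 0.00996 and 0.0122). None overlapped with WT. In PRELP-/- 0 of 22 passed. Of the 6 mesenchymal regulators that GRHL2 and OVOL1 are known to oppose, 2 rose in OMD-/-, where 14.3% of tested genes did, and 0 passed in PRELP-/-. These were Zeb2 and Zeb1, by 0.53 ± 0.12 and 0.43 ± 0.12 (adjusted p = 0.00809 and 0.0236), and Zeb1 overlapped with WT. Fibroblast and leukocyte markers moved in OMD-/- too, as given below, and their part in Zeb1 and Zeb2 was not tested. Of the 6 fitted differences in OMD-/-, 4 were above 0 and 2 below. Those below were Snai1 at -0.48 ± 0.21 (adjusted p = 0.119) and Twist1 at -0.01 ± 0.23 (0.977).

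Genes of other cell types moved beside these results. Fibroblast markers summed to 8176 to 9332 CPM in WT, 17482 to 21306 CPM in OMD-/- and 9894, 19374 and 18963 CPM in PRELP-/- replicates 1 to 3, with 4 of 8 higher in OMD-/- and 2 of 8 in PRELP-/-. T cell markers summed to 22.3 to 25.8 CPM in WT, and to 25.8, 58.1 and 61.3 CPM in OMD-/- replicates 1 to 3, with 4 of 11 higher in OMD-/- and 0 in PRELP-/-. T cells are known to use Gata3 too. Leukocyte markers summed to 227 to 295 CPM in WT and to 218, 449 and 462 CPM in OMD-/- replicates 1 to 3. Replicate 1 was thus below every WT library in this sum. Of the 6 markers 3 rose in OMD-/-, Cd68, Adgre1 and Cd79a, each above WT in every OMD-/- library, and 0 passed in PRELP-/-. Smooth muscle markers summed to 335, 318, 1309 and 1147 CPM in WT, 818, 401 and 414 CPM in OMD-/- and 239 to 261 CPM in PRELP-/-, with 0 of 8 called by edgeR in either (at an unadjusted p under 0.05, 0 in OMD-/- and 7 in PRELP-/-, all 7 lower). Of the 8 adipocyte markers, read here because fat cells use Pparg, 5 were at 3 counts or fewer in every library, with Lep at 0 and Adipoq and Plin1 at no more than 0.0913 CPM. Of the rest, Fabp4, a fatty acid carrier, was 520 to 1918 CPM, highest in PRELP-/- replicate 1, where Pparg was highest too, and the lipase gene Lipe was 20.6 to 27.4 CPM. The 8 markers summed to 544 to 909 CPM in WT, 667 to 796 CPM in OMD-/- and 1939, 614 and 611 CPM in PRELP-/- replicates 1 to 3. Of 10 male accessory gland markers, 7 were at 0 in all libraries. The part of fibroblasts, leukocytes, T cells and fat cells in the values of the factors was not tested.

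Over the 10 libraries the factors fell into patterns of unlike shape, described here by the root-mean-square difference of standardised log2 CPM with no test. Gata3 and Grhl3 were nearest to each other among the factors (0.278 SD), and Ehf and Grhl2 likewise (0.287 SD). Pparg and Elf3 stood apart, the nearest other factor being 1.20 and 1.25 SD away. Among 13063 protein-coding genes, the closest to Ehf was Tlk2 (0.0942 SD), to Grhl3 Hyal1 (0.109 SD), to Grhl2 Arhgef4 (0.121 SD) and to Gata3 Ncoa6 (0.134 SD), and all 4 were lowest in PRELP-/- replicate 1. The closest to Pparg was Myrf (0.168 SD) and to Elf3 Urgcp (0.196 SD). Myrf was at only 0.918 to 2.84 CPM, near the minimum mean of 1 CPM for this search. Urgcp was 41.1 to 52.5 CPM in WT, 57.1 to 64.4 CPM in OMD-/- and 56.7 to 61.4 CPM in PRELP-/-. Xpot (0.312 SD from Foxa1), Efcab14 (0.315 SD from Trp63), Btaf1 (0.324 SD from Klf5) and Agbl5 (0.508 SD from Ovol1) were the closest to the remaining factors.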

How the data were processed

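Bladder RNA of 4 WT, 3 OMD-/- and 3 PRELP-/- samples was sequenced by the authors as strand-specific libraries of poly(A) RNA, with molecular identifiers in the adaptors. The deposited count files hold 1 read count per gene and library, not normalized. Per the file headers reads were aligned with HISAT2, while the submitters' processing notes name STAR 2.5.2b, featureCounts and build GRCm38. The use of the identifiers and of strand in counting is not given in the sources used here. The authors' DESeq2 tables of fold changes and p-values were not used.

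All 55536 identifiers matched GENCODE vM21 (GRCm38), which gave symbols, positions and exon lengths. The 3 comparisons, each with only its 2 groups, were fitted in edgeR 4.0.16 (R 4.3.3) with TMM normalization, the filter on low counts, robust quasi-likelihood and a two-sided test. All 10 factors passed the filter in every comparison. CPM was normalised by TMM factors over all 10 libraries, log2 CPM used a prior count of 2, and 95% intervals came from the fitted SE. Alternatives were DESeq2 1.42.0, its size factors, no filter, all groups in one fit, a replicate block, the Y-linked level as a covariate, limma 3.58.1 voom with sample weights, scaling to epithelial markers and each library left out, and, after seeing the data, an exon length offset and the close pairs of libraries summed.

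The deviations of same-numbered PRELP-/- and OMD-/- libraries were weakly correlated (r = 0.303, 0.181 and 0.148 over genes), as found from the data and not from a label. The blocked count is therefore printed beside that comparison. Named were all factors, Omd and Prelp, at most 4 called genes per list and comparison by smallest adjusted p, markers of other cell types, and the nearest gene to each factor. Some called list genes are counted but not reported by name here. The factors and gene lists were chosen with earlier results of these data known. No column of per-sample values was left out.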

Additional observations from a re-analysis of the deposited data

How the results depend on the processing

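The 3 factors called in OMD-/- became 0 with all groups in one fit, 1 with a replicate block and 0 with close pairs summed, and 0 to 2 with 1 library left out. They were 4 with DESeq2 and with the length offset (Ehf added), 4 with limma-voom (Ehf and Pparg added, Grhl2 lost), 3 with the Y-linked covariate (Pparg added, Grhl2 lost), 3 scaled to epithelial markers (Ehf added, Elf3 lost), 3 without the filter and 2 with DESeq2 size factors (Grhl2 lost). With fewer samples or a block the fit has fewer degrees of freedom, whereas the fit of all groups has more. The cause of these changes was not tested. In PRELP-/- the 0 called factors became 3 with limma-voom and 1 when scaled to epithelial markers. Between the knockouts 1 factor, Klf5, was called with the Y-linked covariate and with limma-voom. The median of the factors in OMD-/- moved to -0.10 with the Y-linked covariate and -0.30 when scaled to epithelial markers. Between same-numbered WT and knockout libraries r was of mixed sign (0.041, -0.0443 and 0.0236 for OMD-/- and -0.0585, 0.137 and -0.0998 for PRELP-/-). Its highest value, 0.137, was close to the 0.148 seen between the knockouts, and no test set these apart. Against WT the replicate block left Grhl2 as the factor called in OMD-/- and 0 in PRELP-/-.

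Genes called in OMD-/- (4899) became 2485 with all groups in one fit and 1658 with close pairs summed, and 2951 to 4850 with 1 library left out. They were 5414 with DESeq2, 6782 with the Y-linked covariate, 7228 with limma-voom and 4367 scaled to epithelial markers. In PRELP-/- (1209) they became 2925 with DESeq2, 2485 with all groups, 115 with the replicate block, 6973 with limma-voom, 2267 scaled to epithelial markers, 2265 with the length offset, 13 with close pairs summed and 475 to 3807 with 1 library left out (3807 without PRELP-/- replicate 1). Between the knockouts (1) they became 54 with DESeq2, 5 without the filter, 3 with all groups, 43 with the replicate block, 192 with the Y-linked covariate, 1012 with limma-voom, 0 with close pairs summed and 1 to 36 with 1 library left out.

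Signs turned for factors that had not passed. In OMD-/- Gata3 became 0.0706 and Trp63 0.0514 with the Y-linked covariate, and Gata3 0.0631 with limma-voom. In PRELP-/- Foxa1 became 0.0071 with DESeq2, 0.00700 with its size factors, 0.0067 without the filter, 0.0072 with all groups, 0.0051 with the Y-linked covariate and 0.14 with limma-voom, which also gave 0.0772 for Gata3, 0.16 for Klf5 and 0.12 for Trp63, and the length offset gave 0.0505 for Trp63. Between the knockouts the Y-linked covariate gave -0.15 for Pparg, 0.18 for Gata3, 0.13 for Grhl2, 0.19 for Grhl3, 0.17 for Trp63 and 0.0338 for Ehf, and limma-voom gave -0.11 for Pparg, 0.0222 for Gata3, 0.0497 for Grhl3, 0.0454 for Elf3 and 0.14 for Trp63. Scaling to epithelial markers gave -0.0814 for Pparg and -0.044 for Foxa1, the length offset -0.0322 for Pparg and 0.14 for Trp63, and close pairs summed -0.0067 for Foxa1. With 1 library left out Gata3 in OMD-/- ran from -0.0773 to 0.0396. In PRELP-/- Foxa1 ran from -0.0674 to 0.12, Gata3 from -0.30 to 0.0433, Klf5 from -0.27 to 0.15 and Trp63 from -0.18 to 0.0717. Between the knockouts Pparg ran from -0.11 to 0.12, Gata3 from -0.27 to 0.0613, Grhl3 from -0.29 to 0.0705, Elf3 from -0.0782 to 0.0531 and Trp63 from -0.12 to 0.11. Klf5, Grhl2 and Elf3 in OMD-/- and Grhl2, Ehf and Elf3 in PRELP-/- kept their direction under every alternative run. So did Pparg, Foxa1, Grhl3, Ovol1 and Ehf in OMD-/- and Pparg, Grhl3 and Ovol1 in PRELP-/-, so a kept direction was not particular to the called factors.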
